A study of Mus musculus with 2 samples.

Results

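The small GTPases, fusion proteins and coat proteins of vesicle transport were examined in the lens of 13-day-old mice, in cortical fiber cells and in epithelial cells. The members were all genes of the array whose platform symbol names a numbered Rab GTPase, a syntaxin, VAMP, SNAP or Sec22 protein, a COPI or COPII coat subunit, a Sec61 translocon subunit or an Arf GTPase from Arf1 to Arf6. The pattern took 101 probes of 93 genes, out of 13709 genes with a value. They comprised 47 Rab genes and 24 SNARE genes, with Sec22 genes counted as SNAREs by their symbol. There were also 7 COPI genes, 5 COPII genes, 4 Sec61 genes and 5 Arf genes. The last member, Snap91, matched by its symbol but encodes a clathrin assembly protein and not a SNARE.

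Each of the 2 samples, cortex and epithelium, was measured on 1 array. Lenses came from 5 mice, and forceps separated the cortical fibers from the capsule, to which the epithelium adheres. The sources used here give no genotype, strain or sex and do not say whether the mice were pooled. A free-text label of both samples speaks of fetal liver, while titles, source names and the design name the lens. There is no replicate, so no test between the samples could be run and every difference is 1 array against 1 array.

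Vesicle transport works as a relay. Newly made proteins enter the endoplasmic reticulum (ER) through the Sec61 channel, leave it in COPII vesicles and pass through the Golgi, from which COPI vesicles return material to the ER. Rab and Arf GTPases switch between an active form on membranes and an inactive form, and recruit the coats and tethers that give each compartment its identity. SNAREs on vesicle and target membranes then zip together and drive fusion; a complete bundle joins 1 R-SNARE, as most VAMPs are, to Qa, Qb and Qc helices, of which most syntaxins supply the Qa helix. Lens epithelial cells keep a full set of organelles, whereas fiber cells elongate, enlarge their plasma membrane and later lose ER, Golgi, mitochondria and nucleus.

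Values are the deposited intensities, in units close to each array's median (0.998 on both). A floor was set at 0.5 of the median, which is 0.499 on both arrays, and values under it were raised to it. A difference is log2 cortex minus log2 epithelium, so a positive value is a brighter cortex. A gene is called higher in a sample when its value there was 3 or more times that on the other array and no lower than its own array's median. Where only 1 array lay above the floor, the fold is a bound, written as "at least". Different probes of a gene, over 558 genes with 2 or more measured ones, had a pooled SD of 1.10 on the log2 scale and a median SD of 0.59; both are technical and hold no variation between mice. Intensities of different probes are not comparable, so no gene's level is set against another's. The dissection showed in the defining genes: 8 of 10 lens fiber markers were higher in cortex and 7 of 8 lens epithelium markers were higher in epithelium. All 10 fiber markers were also above the floor in epithelium, with Crygb at 3812 in cortex and 496 in epithelium and Crygd at 3357 and 196. Of the epithelium markers, 4 were under the floor in cortex, while Slc2a1 read 12.2 there. The part of fiber RNA in the epithelium values was not tested. The 8 liver markers summed to 7.61 on each array.

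Among the members, 6 (6.45%) were higher in cortex and 9 (9.68%) were higher in epithelium. The same rule called 9.41% and 8.17% of all genes, and 17.6% of all genes against 16.1% of members were called in either direction. The same 6 and 9 were called among the 81 members above the floor on at least 1 array. Of such genes in the whole table, 12.5% and 10.8% were called. The share in epithelium was thus near the background and that in cortex under it. With 1 array per sample, nothing more is read from these shares. In bulk samples, fewer cells of a type and less RNA per cell cannot be told apart. Of the 78 members not called, 63 lay above the floor on both arrays, and 49 of these differed by less than 2-fold. The other 14 differed by 2-fold to 3-fold, 3 brighter in cortex and 11 brighter in epithelium. Another 3 members lay above the floor on 1 array alone, and 12 were at the floor on both. The median difference over all 93 members was -0.24, against 0.00 over all genes. Over those above the floor on both arrays, 48 of 75 members (64.0%) were brighter in epithelium, against 49.0% of such genes in the whole table.

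**Figure D1:**
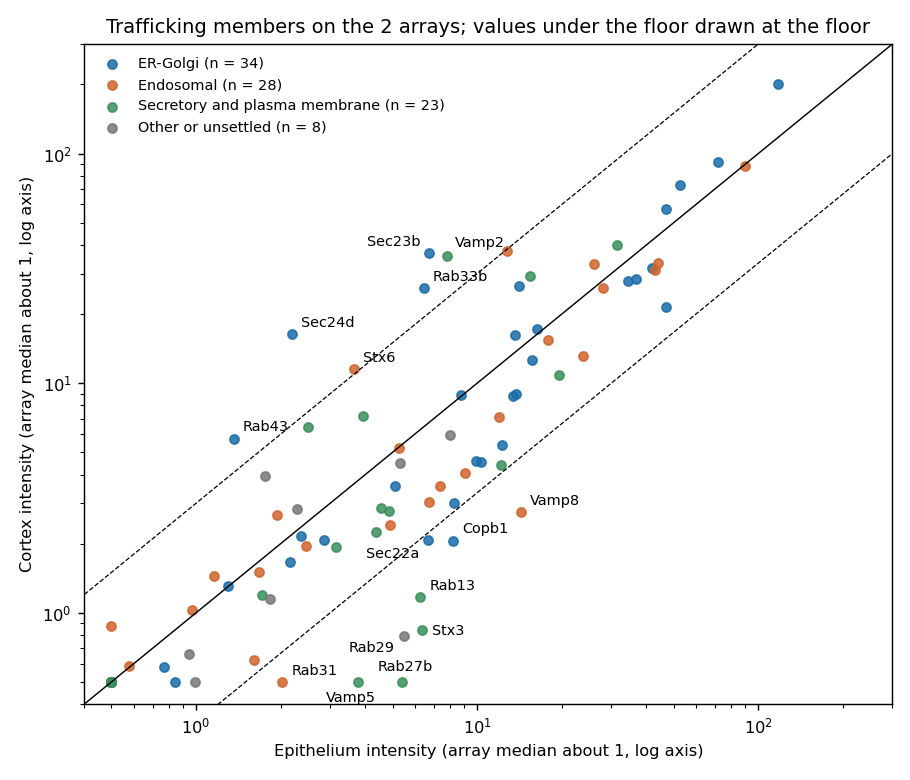
Intensity of the 93 members in cortex (y axis) against epithelium (x axis), both log axes in units of the array median, 1 point per gene and coloured by the site of the protein; the solid line marks equal values and the dashed lines 3-fold. The 6 labelled genes above the upper dashed line are higher in cortex, the 9 labelled genes beyond the lower one are higher in epithelium, and points at the edge lie at the floor.

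The members called in cortex were Sec24d, Sec23b, Rab43 and Rab33b of the ER and Golgi, Stx6 of endosomes and Vamp2 of exocytosis. Those called in epithelium were Rab27b, Stx3, Vamp5 and Rab13 of the secretory route and cell surface, Vamp8 and Rab31 of endosomes, Copb1 and Sec22a of the ER and Golgi, and Rab29. For 5 of these 9 the cortex value lay at the floor or below the array median, so the size of their fold depends on the floor.

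**Figure D2:**
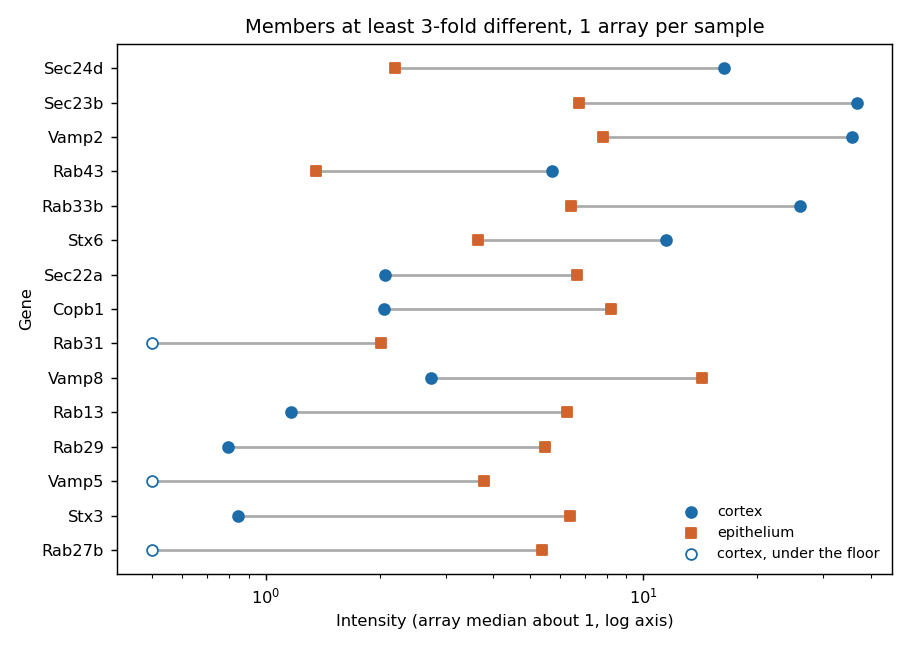
Intensity of the 15 members at least 3-fold different in cortex (circles) and epithelium (squares), on a log axis in units of the array median, 1 array per sample and no error bars. Open circles mark Rab27b, Vamp5 and Rab31, whose cortex value lay under the floor and is drawn at it.

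Upstream sequence is shown for Sec24d and Copb1, which carry the same element of the unfolded protein response and differed in opposite directions, for Sec23b, the partner of Sec24d in the coat, and for Stx6 and Rab21, endosomal genes brighter in cortex with an E-box. RefSeq windows of build GRCm38.p6 were matched by Entrez identifier for 78 of the 93 members, with the most upstream listed start used for each gene. Each run is the 250 bases before the start, 5′ to 3′ on the strand of the gene, with the matched motif in capitals.
Sec24d, chr3:123267246-123267495, plus strand: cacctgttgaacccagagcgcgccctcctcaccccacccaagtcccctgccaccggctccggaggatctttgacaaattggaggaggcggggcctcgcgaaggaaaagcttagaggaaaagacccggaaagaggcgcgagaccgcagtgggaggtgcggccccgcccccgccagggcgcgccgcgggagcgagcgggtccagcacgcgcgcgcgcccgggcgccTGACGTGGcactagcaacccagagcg
Copb1, chr7:114254681-114254930, minus strand: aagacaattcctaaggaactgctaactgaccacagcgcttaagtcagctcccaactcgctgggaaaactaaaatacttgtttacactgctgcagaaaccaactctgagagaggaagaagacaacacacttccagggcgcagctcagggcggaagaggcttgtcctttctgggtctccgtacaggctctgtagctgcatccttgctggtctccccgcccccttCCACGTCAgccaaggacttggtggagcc
Sec23b, chr2:144555979-144556228, plus strand, with no match: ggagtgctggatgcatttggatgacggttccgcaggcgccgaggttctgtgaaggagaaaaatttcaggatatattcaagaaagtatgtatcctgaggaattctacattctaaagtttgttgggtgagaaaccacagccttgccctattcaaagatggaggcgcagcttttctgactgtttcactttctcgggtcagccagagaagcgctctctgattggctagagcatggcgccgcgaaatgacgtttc
Stx6, chr1:155158453-155158702, plus strand: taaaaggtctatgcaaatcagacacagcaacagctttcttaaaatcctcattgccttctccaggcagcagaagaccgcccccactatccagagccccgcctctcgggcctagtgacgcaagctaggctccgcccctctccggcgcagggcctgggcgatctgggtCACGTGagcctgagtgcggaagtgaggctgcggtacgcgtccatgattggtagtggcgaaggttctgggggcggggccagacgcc
Rab21, chr10:115315592-115315841, minus strand: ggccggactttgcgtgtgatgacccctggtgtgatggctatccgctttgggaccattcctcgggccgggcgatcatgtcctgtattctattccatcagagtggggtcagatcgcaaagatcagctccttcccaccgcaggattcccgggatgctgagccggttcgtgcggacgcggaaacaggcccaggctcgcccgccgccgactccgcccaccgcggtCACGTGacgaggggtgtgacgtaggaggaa

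On both strands of these windows, 5 motifs were searched. TGACGTGG, bound by factors of the unfolded protein response, occurred in 2 of 78 member windows (2.56%) and in 134 of 27025 windows of all genes (0.496%). Both were ER-Golgi genes. In Sec24d its first base lay 26 bases before the start on the gene's strand, and in Copb1 the match lay 28 bases before the start on the other strand. CACGTG, the E-box at the core of the element bound by the lysosomal regulator TFEB, occurred in 7 member windows (8.97%) and in 6.04% of all windows. Among the endosomal members it was present in 5 of 23 windows (21.7%), those of Rab5a, Rab20, Rab21, Stx6 and Vamp4, and among the ER-Golgi members in 1 of 29, that of Arf5. The remaining one was Rab23. With the deposited scaling, Stx6, Rab21, Rab5a and Arf5 were brighter in cortex (1.66, 1.56, 0.34 and 0.09 on the log2 scale). Vamp4 was brighter in epithelium (-1.06), Rab23 was above the floor in epithelium alone and Rab20 was at the floor on both arrays. A link between the E-box and the direction of a gene was not tested. The E-box began 85 bases before the start of Stx6 and 30 bases before that of Rab21. The half-site of Maf factors, TGCTGAC, was present in 1 member window, that of Sec13, against 3.72% of all windows. The ER stress response element, CCAAT and CCACG set 9 bases apart (0.122% of all windows), and the heat shock element, GAA, TTC and GAA each set 2 bases apart (0.403%), were in no member window. The motifs do not overlap each other in these runs. A match is a description of letters and not a binding site.

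The COPII coat, which buds vesicles from the ER, held the largest differences toward cortex. Sec24d, a subunit that selects cargo, stood at 16.4 in cortex and 2.19 in epithelium, which is 7.46-fold higher in cortex. Sec23b, the subunit that binds Sec24 and stimulates GTP hydrolysis by Sar1, stood at 36.9 and 6.74, or 5.47-fold higher in cortex. Its paralog Sec23a was under both floors (0.195 and 0.128). The outer coat did not follow: Sec31a read 12.6 in cortex and 15.7 in epithelium, and Sec13, which also serves in nuclear pores, read 27.9 and 34.5. The coat's inner layer was thus brighter in cortex for both measured members above the floor, and its outer layer slightly brighter in epithelium. The GTPase that starts the coat was measured as Sar1a (17.7 in cortex, 27.5 in epithelium) and Sar1b (118 and 78.0), both under 2-fold.

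COPI subunits did not move as one. Copb1, the β-COP subunit, stood at 2.06 in cortex and 8.19 in epithelium, 3.98-fold higher in epithelium. Cope, the ε subunit, read 200.3 in cortex and 117.2 in epithelium, and Copb2 (β′-COP) read 57.3 and 46.9, so these 2 subunits were the ones brighter in cortex with the deposited scaling. Both turned toward epithelium after quantile normalization (Cope -0.24, Copb2 -0.44), loess and ribosomal centring, so their direction is not settled. Copg1 (4.601 and 9.90), Copg2 (9.01 and 13.8), Copz1 (8.75 and 13.4) and Copz2 (3.56 and 5.11) were brighter in epithelium by less than 3-fold. The median over the 7 subunits was -0.61. Arcn1, the δ subunit and not part of the symbol pattern, read 9.51 and 10.0. Subunits of 1 coat thus spanned -1.99 to 0.77 on the log2 scale.

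The Sec61 channel subunits stayed under 2-fold. Sec61b read 26.6 in cortex and 14.1 in epithelium, Sec61g 91.9 and 71.9, and Sec61a2 2.07 and 2.85. Sec61a1, the main pore subunit in textbook accounts, was under the floor on both arrays (0.244 and 0.358), and the floor is not a detection limit. The median of the 4 subunits changed sign with the scaling, from 0.18 as deposited to -0.22 after quantile normalization, so no direction is given.

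Arf GTPases recruit COPI and clathrin adaptors at the Golgi, and Arf6 acts at the plasma membrane and in recycling. None of the 5 was called. Arf1 read 73.1 in cortex and 52.5 in epithelium, Arf5 17.2 and 16.3, and Arf6 1.51 and 1.68. Arf4 differed most, at 21.4 and 47.03, 2.20-fold brighter in epithelium. Arf2 stood at 0.843 in epithelium, with cortex under the floor.

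Among the 10 Rabs of the ER and Golgi, 2 (20%) were higher in cortex and none in epithelium. Over all genes 9.41% and 8.17% were called, so with 10 genes nothing is read from these counts. Rab33b, a Golgi Rab that binds the autophagy protein Atg16l1, stood at 25.98 in cortex and 6.44 in epithelium, 4.03-fold higher in cortex. Its paralog Rab33a read 1.31 and 1.30, so the difference of Rab33b was not shared by its paralog. Rab43, which acts in ER-to-Golgi traffic, stood at 5.73 and 1.36, 4.21-fold higher in cortex. The calls of Rab33b and Rab43 were lost after ribosomal centring, at 1.07 and 1.13 on the log2 scale. None of the Rabs of the central ER-Golgi step was called. Rab1a read 5.40 in cortex and 12.2 in epithelium, 2.27-fold brighter in epithelium. Under 2-fold were Rab1b (8.88 and 8.76), Rab2a (28.4 and 36.7) and Rab6a (16.2 and 13.6). Rab18 (2.16 and 2.36), Rab30 (0.580 and 0.768) and Rab36 (1.67 and 2.16, with a second probe at 0.613 and 1.03) completed the group, each under 2-fold. The members' median was -0.06.

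The 4 members grouped as SNAREs of the same step were all brighter in epithelium. Over all genes above the floor on both arrays, 49.0% were. Sec22a, grouped here by its symbol as a relative of the ER-Golgi SNARE Sec22b, stood at 2.07 in cortex and 6.68 in epithelium, 3.23-fold higher in epithelium. Stx18, the syntaxin of retrograde traffic to the ER, read 3.01 and 8.28, and Stx5a, the syntaxin of the Golgi, read 4.55 and 10.3; both stayed under 3-fold. Sec22b read 31.6 and 42.0. Their differences ran from -1.69 to -0.41 on the log2 scale. Among ER-Golgi partners outside the symbol pattern, the SNARE Gosr2 went the other way, at 1.08 in cortex and 0.651 in epithelium. Gosr1, Bet1 and Bet1l were brighter in epithelium, and Ykt6 and Use1 were near equal. Sec22a stayed higher in epithelium under each scaling but fell just under 3-fold after loess on brightness (-1.55).

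Of 18 endosomal Rabs measured, none was higher in cortex and 1 (5.56%) was higher in epithelium, against 9.41% and 8.17% of all genes, so with 18 genes nothing is read from these counts. The called one, Rab31 of the trans-Golgi and early endosome, stood at 2.02 in epithelium, with cortex under the floor, at least 4.05-fold higher in epithelium; a second probe read 0.571 in cortex against 0.858, and the call was lost with the floor at the array median. Rab21, an early endosomal Rab that carries integrins, was the member closest to the limit on the side of cortex, at 37.6 and 12.8 (2.94-fold). The Rabs that define the main stages differed little. Rab5a of early endosomes read 32.99 in cortex and 26.02 in epithelium, Rab7 of late endosomes 33.4 and 44.0, and Rab11a of recycling endosomes 88.7 and 89.7. The paralogs of 2 of them were dimmer in cortex than in epithelium, Rab5c at 7.14 and 12.0 and Rab11b at 4.08 and 9.04. Rab14, between Golgi and endosomes, read 31.1 and 43.0, and the recycling Rabs Rab4a and Rab4b read 0.621 and 1.61, and 13.2 and 23.8. Rab9, of transport from late endosomes to the Golgi, read 3.04 and 6.73. Rab20, Rab25 and Rab9b were at the floor on both arrays, and Rab17 was above it in cortex alone, at 0.873. Rab24 (2.67 and 1.93), Rab7b (1.03 and 0.971) and Rab22a (0.587 and 0.576) were near equal on the arrays or under 2-fold.

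Endosomal SNAREs went both ways. Vamp8, the R-SNARE of late endosome fusion and of regulated secretion, stood at 2.74 in cortex and 14.3 in epithelium, 5.23-fold higher in epithelium. Stx6, a Qc-SNARE of the trans-Golgi and early endosome, stood at 11.5 and 3.65, 3.16-fold higher in cortex, and fell under 3-fold after quantile normalization. Vamp4, which pairs with Stx6 in trans-Golgi traffic, read 3.55 and 7.38, so these partners differed in opposite directions. Vamp7 read 2.42 and 4.89, Vamp3 5.23 and 5.28, Stx7 1.95 and 2.46, Stx8 25.8 and 28.1, Stx12 15.4 and 17.8, and Snap29 1.44 and 1.16.

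The endosomal set and the ER-Golgi set were compared by their values only, since 1 array per sample allows no test between them. The 28 endosomal members had a median difference of -0.14, with 1 (3.57%) higher in cortex and 2 (7.14%) higher in epithelium. The 34 ER-Golgi members had a median of -0.31, with 4 (11.8%) higher in cortex and 2 (5.88%) higher in epithelium, against 9.41% and 8.17% of all genes. The gap of 0.18 between the medians turned to -0.07 with the floor at the array median, so no order of the sets is given. Their ranges over members above the floor on both arrays overlapped, -2.39 to 1.66 for the endosomal set and -1.99 to 2.90 for the ER-Golgi set. The spread lay within each set, where 2 COPII subunits stood apart from most of the other ER-Golgi genes and Vamp8 and Stx6 stood at opposite ends of the endosomal genes measured on both arrays.

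**Figure D3:**
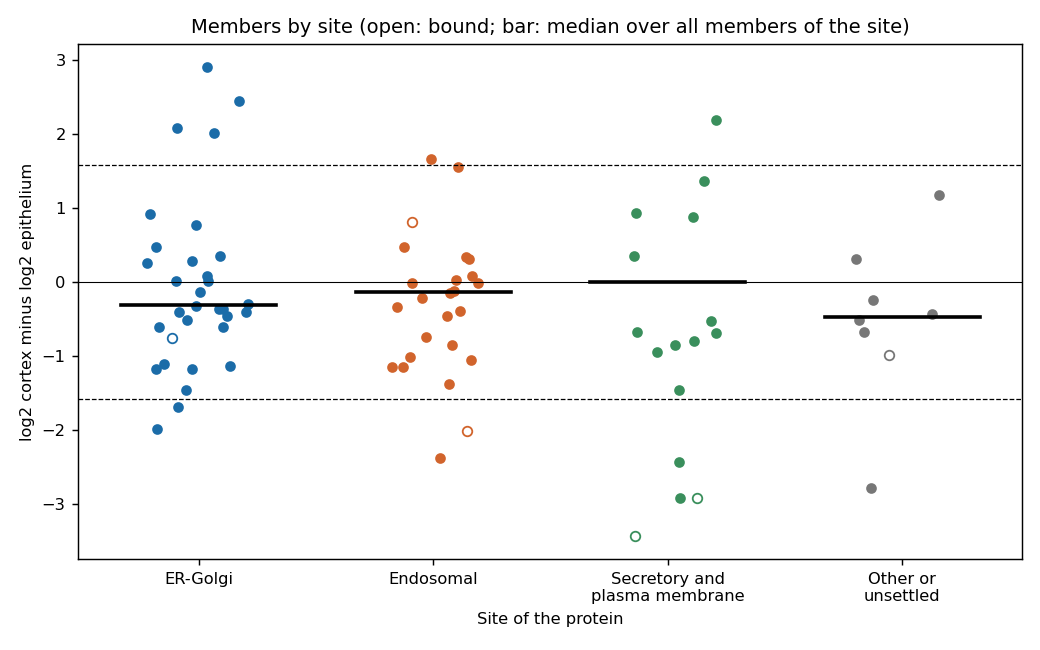
Log2 cortex minus log2 epithelium of each member above the floor on at least 1 array, by the site of the protein, with open points for bounds, a bar for the median over all members of the site and dashed lines at 3-fold. The medians of the ER-Golgi and endosomal members are -0.31 and -0.14, and both sets hold points on either side of 0.

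Of the 13 Rabs of secretion and the cell surface, 2 (15.4%) were higher in epithelium and none in cortex. Over all genes 8.17% and 9.41% were called, so with 13 genes nothing is read from these counts. Rab13, a Rab of tight junction traffic, stood at 1.17 in cortex and 6.27 in epithelium, 5.38-fold higher in epithelium. Rab27b, which docks secretory granules, stood at 5.39 in epithelium, with cortex under the floor, at least 10.8-fold higher; its second probe was under the floor on both arrays (0.270 and 0.229), so the call rests on 1 probe. Its paralog Rab27a was at the floor on both. Rab38 and Rab32, which serve melanosome formation, read 2.77 and 4.84, and 7.202 and 3.93. Of 8 measured pigment cell markers, 2 were higher in epithelium and 1 in cortex. Those in epithelium were Oca2 (0.521 in cortex and 9.09 in epithelium, 17.4-fold) and Tyrp1 (at least 6.62-fold). The 1 in cortex was Dct (at least 3.96-fold), and Tyr and Gpr143 were under both floors. The list summed to 5.44 in cortex and 14.99 in epithelium. The part of pigment cells in the Rab27b and Rab38 values was not tested. Rab10 read 2.25 and 4.35, Rab8a 1.19 and 1.72 with a second probe under both floors, Rab15 29.4 and 15.4, and Rab3b 10.8 and 19.5. The other Rabs of regulated exocytosis, Rab3a, Rab3c, Rab3d and Rab37, were at the floor on both arrays.

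SNAREs of the plasma membrane held the widest spread. Vamp2, the R-SNARE of synaptic vesicles and of many other exocytic carriers, stood at 35.7 in cortex and 7.82 in epithelium, 4.56-fold higher in cortex. Vamp3, its close relative on recycling endosomes, was equal (5.23 and 5.28), and Vamp1 was under both floors. Stx3, the apical syntaxin of epithelia, stood at 0.842 in cortex and 6.39 in epithelium, 7.58-fold higher in epithelium; a second probe read 1.05 in epithelium, with cortex under the floor, at least 2.10-fold in the same direction. Vamp5, found at the plasma membrane of muscle and other cells, stood at 3.78 in epithelium, with cortex under the floor, at least 7.57-fold higher. Its second probe contradicted this, at 1.26 in cortex and 1.10 in epithelium. With the floor lowered to 0.25 of the array median that probe stands for the gene, and the difference turns to 0.20. Vamp5 lies beside Vamp8 in the RefSeq annotation of GRCm38.p6, with 0 protein-coding genes between them. Stx4a, the basolateral syntaxin, read 4.42 and 12.2 (2.75-fold), Stx2 read 1.94 and 3.15, and Snap23, the SNAP protein of most tissues, 2.85 and 4.56.

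Snap25, the SNAP protein of neurons and endocrine cells, was brighter in cortex on both of its probes. The probe used read 6.42 in cortex and 2.50 in epithelium (2.57-fold) and the other 1.55 and 0.581 (2.67-fold), so neither reached 3-fold and the probes differed by an SD of 0.04 on the log2 scale. Snap91, the clathrin assembly protein of synapses, read 3.96 and 1.75. Stx1a, the neuronal partner of Snap25 and Vamp2, was under both floors (0.320 and 0.339). Of 8 neuron and retina markers none was called, the list summed to 6.56 in cortex and 6.86 in epithelium, and Syn1, Syp and Sag were at the floor on both arrays. Brighter in cortex among them were Tubb3, at 1.15 with epithelium under the floor (at least 2.32-fold), and Rcvrn, at 2.35 and 1.87, while Gad1, Nefm and Syt1 were brighter in epithelium; the part of neuronal or retinal RNA in the Snap25 difference was not tested. Snap47 read 40.1 and 31.5.

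Syntaxins of the Qa class leaned to epithelium at each site. Of the 9 measured, 8 lay above the floor on both arrays and all 8 were brighter in epithelium, by -0.21 (Stx12) to -2.92 (Stx3) on the log2 scale, and Stx1a was at the floor. Only Stx3 was called. None of the 9 turned toward cortex under quantile normalization or loess. Over all genes above the floor on both arrays 49.0% were brighter in epithelium. The lean was not particular to the Qa class. Among members above both floors, 6 of 7 R-SNAREs (85.7%) and 16 of 21 SNAREs of any class (76.2%) were brighter in epithelium. Of the 4 SNAP proteins 1 was. The Qa grouping was noticed after the values were seen. Stx17, the syntaxin of autophagosome fusion, was among the Qa syntaxins, at 1.14 and 1.83.

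Rabs with another or an unsettled site gave 1 call. Rab29, a Rab of the trans-Golgi and lysosomes that is linked to the kinase Lrrk2, stood at 0.792 in cortex and 5.48 in epithelium, 6.92-fold higher in epithelium. Its second probe read 0.684 and 4.201, 6.14-fold in the same direction, which made Rab29 the 1 called member with 2 probes past 3-fold. Rab12 (5.93 and 7.98), Rab19 (2.83 and 2.29), Rab28 (0.659 and 0.940) and Rab40c (4.49 and 5.32) stayed under 2-fold, and Rab23, a Rab of cilia and hedgehog signalling, stood at 0.988 in epithelium, with cortex under the floor.

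Of the 8 members with 2 probes, 5 were called and 4 of those 5 had a second probe under 3-fold or at the floor. Single probes therefore carry most of the calls, since the 10 other called members have 1 probe each.

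**Figure D4:**
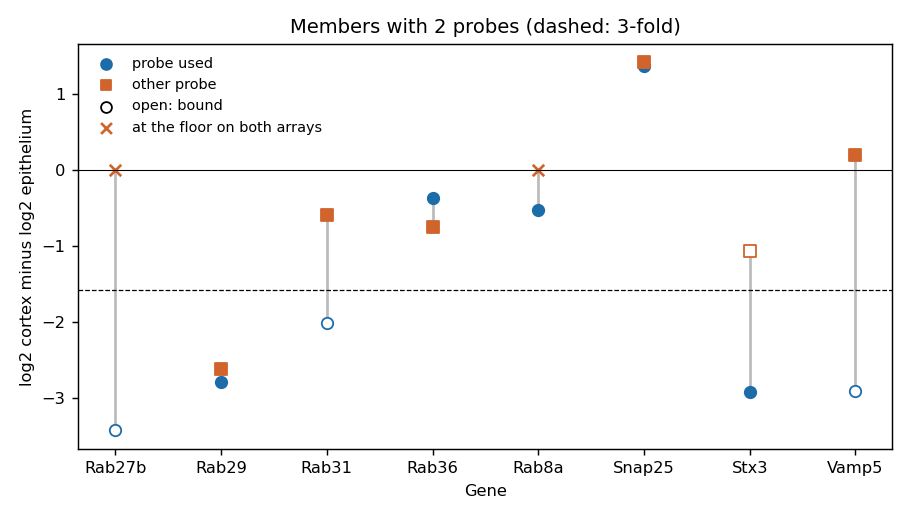
Log2 cortex minus log2 epithelium for both probes of the 8 members with 2 probes, circles for the probe used, squares for the other, open symbols for bounds, crosses for probes at the floor on both arrays and a dashed line at 3-fold. The probes of Rab29 and Snap25 lie together, while those of Rab27b, Rab31, Stx3 and Vamp5 lie apart.

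Genes that work with the members were described from 4 lists of 112 measured genes, of which 10 (8.93%) were called in cortex and 7 (6.25%) in epithelium, against 9.41% and 8.17% of all genes. The endosomal partners held most of the cortex calls. Of 39 measured, 8 (20.5%) were called in cortex, against 9.41% of all genes, and none in epithelium, against 8.17%. Their median was 0.37. Ap2b1, the β subunit of the AP-2 adaptor that links cargo to clathrin at the cell surface, stood at 151 in cortex and 18.8 in epithelium, 8.02-fold higher in cortex. Vps11, of the tethering complexes that act with Rab5 and Rab7, stood at 219 and 31.6 (6.93-fold), the AP-2 subunit Ap2a1 at 6.68 and 1.28 (5.23-fold), the mannose 6-phosphate receptor Igf2r at 22.5 and 5.40 (4.16-fold), and the clathrin light chain Cltb at 23.5 and 5.86 (4.01-fold). The remaining 3 were Snx3, Ehd3 and Ap3b1, at 3.48-fold to 3.82-fold. The third AP-2 subunit on the array, Ap2m1, read 53.4 and 24.7. Other subunits of the Vps11 complexes were not called: Vps16 read 12.0 and 4.35, Vps41 15.6 and 11.0, and Vps18 5.91 and 10.9. Vps33a was above the floor in cortex alone, at 0.745. Ap3d1, of the same adaptor as Ap3b1, was brighter in epithelium, at 4.87 and 8.22. After ribosomal centring 2 of the 8, Ap2b1 and Vps11, were still past 3-fold, and Snx3 fell under the limit in each of the 3 other scalings.

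Of 30 ER-Golgi partners, 0 were higher in cortex and 2 (6.67%) were higher in epithelium, the latter near the 8.17% of all genes, and their median was -0.15. These 2 encode a receptor pair for glycoprotein cargo. Lman1, the lectin, stood at 1.18 in cortex and 5.15 in epithelium (4.35-fold), and Mcfd2, its calcium-binding partner, at 3.53 and 14.5 (4.11-fold). The p24 cargo proteins Tmed2, Tmed3, Tmed9 and Tmed10 and the retrieval receptors Kdelr2 and Kdelr3 were brighter in epithelium by less than 3-fold, Kdelr3 most, at 7.84 and 17.8. So Sec23b and Sec24d stood higher in cortex while the cargo receptors carried by COPII vesicles did not.

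Regulators of Rab proteins gave 3 calls of 21 (14.3%), all in epithelium, where 8.17% of all genes were called. Rabggta, the α subunit of the enzyme that attaches the lipid anchors of Rabs, stood at 0.669 in cortex and 4.83 in epithelium (7.21-fold), while its β subunit Rabggtb read 27.6 and 35.4. Evi5 (0.518 and 1.85) and Rin2 (1.64 in epithelium, under the floor in cortex) were also called and lost the call with the floor at the array median. Of the fusion and exocytosis genes, 2 of 22 (9.09%) were higher in cortex and 2 (9.09%) in epithelium. These shares were near the 9.41% and 8.17% of all genes. Cplx1, complexin 1, which clamps SNARE complexes, stood at 11.4 and 1.43 (7.91-fold higher in cortex). Syt2, a synaptic calcium sensor, stood at 31.9 and 5.18 (6.17-fold), with a second probe under the floor on both arrays. Exoc1, a subunit of the exocyst, stood at 0.752 in cortex and 5.81 in epithelium (7.73-fold higher in epithelium), and Stxbp2, which pairs with Stx3 in epithelia, stood at 3.34 in epithelium, with cortex under the floor (at least 6.69-fold). The Stx3 and Stxbp2 pair was thus higher in epithelium, and Vamp2 and Cplx1 were higher in cortex, each on its own probe.

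The scaling of the arrays set the balance of calls. Centring the arrays on 62 ribosomal protein genes moved the median over genes measured above both floors from 0.03 to -0.91. Then 1 member was higher in cortex and 28 were higher in epithelium, against 4.10% and 20.5% of all genes. Cortex took 53.5% of the calls over all genes as deposited and 16.7% after that centring. Over genes above both floors, the members' median minus that of all genes was -0.40 as deposited, -0.45 after quantile normalization and -0.37 after loess. Ribosomal centring subtracts 0.95 from every such gene, so it leaves that gap at -0.40. The call of 9 of the 15 members held in each of the 3 other scalings: Sec24d in cortex, and Rab27b, Stx3, Vamp5, Rab29, Rab13, Vamp8, Rab31 and Copb1 in epithelium. Ribosomal centring could turn no called member, because the 0.95 it subtracts is smaller than the 3-fold limit on the log2 scale. Under quantile normalization and loess, no called member changed direction. Smaller differences did: of the 75 members above both floors, 48 were brighter in epithelium as deposited, 58 after quantile normalization, 53 after loess and 66 after ribosomal centring.

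**Figure D5:**
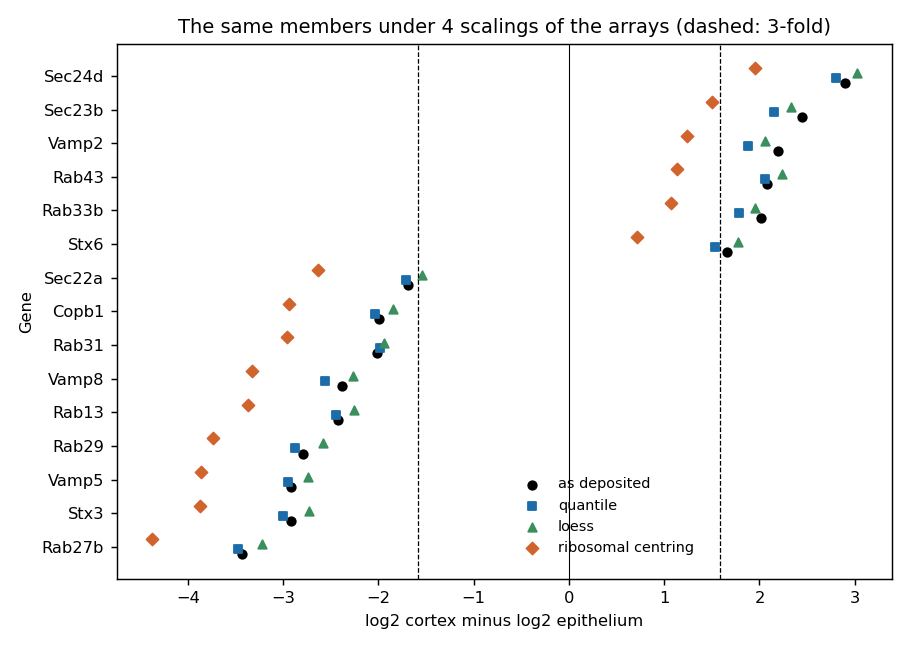
Log2 cortex minus log2 epithelium of the 15 called members with the deposited scaling (circles), quantile normalization (squares), loess on brightness (triangles) and centring on ribosomal protein genes (diamonds); dashed lines mark 3-fold. Ribosomal centring moves each point toward epithelium and leaves Sec24d as the 1 member past the line on the side of cortex.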

How the data were processed

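Per the labels' description, biotin-labelled RNA was hybridized to 1-colour CodeLink mouse arrays and read with CodeLink software. The deposited table holds 1 linear intensity for each of 19819 probes and array; the sources used here do not give the authors' background and scaling steps. Probes without a value (87 in cortex, 97 in epithelium) were left out, as were those without a single symbol. Genes were named through the platform annotation, and the probe with the highest mean log2 value stood for a gene. All members above the floor on at least 1 array could be named. Each partner list's named genes are the called ones, up to 5, and a few named after their values were seen. Members, sites, lists and the 3-fold rule were chosen with earlier results of these data known. Alternatives were other scalings (loess span 0.3), floors, probe rules, fold limits, filters and site groups. Further marker lists (5 macrophage, 9 vessel and connective tissue and 2 erythroid genes measured) gave 0, 1 and 0 calls, the 1 being Col1a2 in epithelium. The analysis used Python 3.11.15 with pandas 2.3.3, numpy 2.4.6, statsmodels 0.14.6 for loess, and matplotlib 3.10.9. The number of arrays limits the precision.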

Additional observations from a re-analysis of the deposited data

How the results depend on the processing

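No paired analysis was possible because each group has 1 array. Of 15 called members, 7 kept their call in each of the 7 alternatives that change single values. Vamp5 reversed to 0.20 with the floor at 0.25 of the median, where its other probe is used. After ribosomal centring the medians were -1.19 (members), -1.08 (endosomal and Rab), -1.26 (ER-Golgi), -1.49 (SNARE), -1.56 (COPI) and -1.10 (Arf). Counts there, cortex then epithelium, were 1 and 28 for members, 0 and 9 for endosomal, 1 and 7 for ER-Golgi members, 2 and 7 for endosomal partners, with 9 ER-Golgi and 4 fusion partners in epithelium. With a limit of 2-fold, 9 members (9.68%, against 16.4% of all genes) were higher in cortex and 20 (21.5%, against 15.3%) in epithelium. At that limit 7 endosomal and 7 ER-Golgi members were higher in epithelium, 2 endosomal members in cortex, 14 endosomal partners in cortex and 1 in epithelium, and 5 ER-Golgi partners in epithelium. With a limit of 5-fold, 2 members (2.15%, against 5.09% of all genes) were higher in cortex and 6 (6.45%, against 3.48%) in epithelium. In cortex, 2 ER-Golgi members, 0 endosomal members and 3 endosomal partners were higher. In epithelium, 1 endosomal member, 0 ER-Golgi members, 1 Rab regulator and 0 ER-Golgi partners were. Endosomal members higher in cortex were 0 after quantile normalization (8.28% of all genes) and 0 without members of several sites (9.41% of all genes). ER-Golgi members in epithelium were 1 after loess (7.81% of all genes). Endosomal members in epithelium were 1 with the floor at the median (6.40% of all genes) and 1 with the mean over probes (7.69% of all genes). Rab regulators in epithelium were 1 with the floor at the median. Fusion partners in cortex were 1 with the mean over probes (8.74% of all genes).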
